A study of Homo sapiens with 20 samples.

Results

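The IL-1 family was followed as 10 genes defined by their names. They are the cytokine genes IL1A, IL1B, IL36G, IL33 and IL18, the antagonist genes IL1RN and IL36RN, and the receptor genes IL1R1, IL1R2 and IL1RAP. Each of the 10 was matched to 1 of the 57500 Ensembl genes listed in every library. RNA was sequenced from 20 cultures of NTERT cells, human keratinocytes immortalized with telomerase, in 4 groups of 5. WT cells carry a control guide RNA, and GCN2KO cells are an edited pool, not a clone, in which CRISPR/Cas9 targeted EIF2AK4, the gene of the eIF2 kinase GCN2. Which of the guides to that gene was used for these libraries is not given in the sources used here. Cells of both genotypes were maintained in the same low-calcium medium. In the methods of high-density wounding (HDW), confluent cells were moved to medium with serum and added calcium, which starts differentiation into an epithelial sheet, before they were wounded. The sources do not say separately whether the unwounded cultures of these libraries had the same change of medium. Cultures were either left unwounded or taken 6 h after HDW, a grid of parallel scratches that places many cells at a wound edge. The methods count the 5 samples of a group as biological replicates, without saying whether they were separate experiments or wells of 1 experiment, so p-values measure only the spread between these samples.

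IL-1 family cytokines are alarm signals of barrier tissues, and keratinocytes hold several of them before any injury. The agonists IL-1α, IL-1β and IL-36γ bind a specific receptor chain that then recruits IL-1RAP, the shared accessory chain, to signal through MyD88 and the IRAK kinases. IL-1 receptor antagonist and IL-36 receptor antagonist occupy the receptors without recruiting that chain, and IL-1R2 is a decoy receptor that binds IL-1 without signaling. IL-1β and IL-18 are made as precursors that caspase-1 cleaves, whereas IL-1α and IL-33 are released by damaged cells. mRNA levels do not measure any of these protein steps.

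The libraries held 14083504 to 34611570 counts, with the lowest totals in the WT unwounded group (14083504 to 30505904). EIF2AK4 had 3980 to 4555 normalized read counts in the WT libraries and 806 to 962 in the GCN2KO libraries, which do not overlap. The keratinocyte genes KRT5 (113606 to 480332 counts per library) and TP63 (4894 to 13164) were abundant, whereas KRT1 had 6 to 39. Log2 fold changes of GCN2KO against WT unwounded cells were -1.36 for COL17A1, -1.06 for KRT1, -0.85 for KRT14 and -0.52 for TP63. They were 0.12 for DSG3, 0.23 for KRT10, 0.50 for KRT5 and 1.83 for IVL. The sum of these 8 genes, given below, does not show these opposite differences. Of the markers of other cell types, the leukocyte gene PTPRC had at most 2 counts, the melanocyte gene TYR had 0 in every library and the endothelial gene PECAM1 had at most 5. Other genes of these lists had more counts per library, with 312 to 1729 for CD14, 54 to 677 for MITF, 10 to 57 for MLANA and 19 to 83 for PMEL. Among fibroblast genes, COL1A1 had 397 to 1023 counts and COL3A1 had 0 to 2. The summed immune list of 10 genes, mostly CD14, was 1663 to 1911 normalized counts in unwounded and 912 to 1080 in wounded WT, and 745 to 1324 in unwounded and 522 to 1103 in wounded GCN2KO libraries. The summed list of 5 melanocyte genes, mostly MITF, was 130 to 209 in WT and 346 to 642 in GCN2KO libraries. Summed levels of the 7 fibroblast genes, mostly COL1A1, ranged from 669 to 1043 over the groups. Those of the 4 endothelial genes ranged from 10.9 to 37.5, and those of the 8 keratinocyte genes from 400800 to 532800. The part of these lists in the results was not tested, and in bulk RNA fewer cells of a type and less RNA per cell cannot be told apart. In a chi-square comparison of counts between libraries of 1 group, the statistic per gene was 16.0 to 40.8 between GCN2KO HDW library 5 and the other 4, and 2.48 to 6.98 among those. It was 5.83 to 21.8 between WT HDW library 2 and the others of its group, and leaving out either library moved no member across the threshold. It was 6.76 to 49.4 among the GCN2KO unwounded libraries. No 2 libraries agreed within sampling noise.

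Of the 10 genes, 7 lie on chromosome 2 (GRCh38). IL1A (112773925 to 112784493, minus strand) and IL1B (112829751 to 112836816, minus strand) stand beside IL36G (112973203 to 112985658, plus), IL36RN (113058638 to 113065382, plus) and IL1RN (113099315 to 113134016, plus). IL1R2 (101991960 to 102028544, plus) and IL1R1 (102064544 to 102179874, plus) are neighbors elsewhere on the chromosome. IL18 is on chromosome 11 (112143253 to 112164096, minus), IL33 on chromosome 9 (6215786 to 6257983, plus) and IL1RAP on chromosome 3 (190514051 to 190659750, plus). IL1R1 shares 11 exonic bases, 0.154% of its total, with an antisense gene, and no other member shares any.

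The sequence before the most upstream RefSeq start is shown for the 5 clustered genes, since neighbors there moved in opposite directions between the genotypes. Bases in an annotated exon were left off, so the runs differ in length. Those of IL1B, IL36G and IL1RN end 37, 120 and 78 bases before that RefSeq start. The runs of IL36G and IL1RN lie inside the gene spans given above, downstream of the annotated gene start. They are thus not the sequence before that gene start. They are given 5′ to 3′ on the gene's strand (GRCh38.p14), in lower case with motif matches in capitals. The regions, in the order of the lines, are chr2:112784494-112784743, chr2:112836817-112837029, chr2:112977756-112977885, chr2:113058388-113058637 and chr2:113117721-113117892.
IL1A: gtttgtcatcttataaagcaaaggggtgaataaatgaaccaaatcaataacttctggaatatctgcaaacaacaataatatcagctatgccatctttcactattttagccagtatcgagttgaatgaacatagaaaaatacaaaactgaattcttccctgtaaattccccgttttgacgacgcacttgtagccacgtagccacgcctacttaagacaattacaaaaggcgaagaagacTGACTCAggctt
IL1B: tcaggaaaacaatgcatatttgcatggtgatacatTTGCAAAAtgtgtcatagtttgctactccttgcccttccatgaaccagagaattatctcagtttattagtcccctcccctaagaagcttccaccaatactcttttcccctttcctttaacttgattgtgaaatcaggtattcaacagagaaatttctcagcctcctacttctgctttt
IL36G: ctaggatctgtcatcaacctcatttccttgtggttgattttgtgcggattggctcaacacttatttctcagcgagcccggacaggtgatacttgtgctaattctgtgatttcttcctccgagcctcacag
IL36RN: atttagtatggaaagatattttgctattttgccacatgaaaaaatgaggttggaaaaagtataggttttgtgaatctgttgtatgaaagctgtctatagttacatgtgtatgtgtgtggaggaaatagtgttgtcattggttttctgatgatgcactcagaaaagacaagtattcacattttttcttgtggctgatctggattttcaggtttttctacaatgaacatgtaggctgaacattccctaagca
IL1RN: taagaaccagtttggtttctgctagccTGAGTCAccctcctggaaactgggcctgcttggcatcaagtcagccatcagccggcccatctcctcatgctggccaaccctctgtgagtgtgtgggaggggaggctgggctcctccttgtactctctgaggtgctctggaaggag
Searched on both strands in the 250 bases before a start, the AP-1 motif TGANTCA was found in 3 of 18 windows of 9 members (2 overlapping windows of IL1A and 1 of IL1RN) and in 6.57% of 35116 windows of all genes. The C/EBP motif TTGCNNAA was found in the window of IL1B and in 9.05% of all windows. The NF-kB motif GGANTTTCC (1.45% of all windows) and the ATF4 amino acid response motif TGATGNAA (3.14%) were found in no window of a member, which says only that these letters are not there. No window was given for IL18. The matches are a description, and binding was not measured.

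Normalized read counts were divided by exon length to compare genes with each other. This length merges all annotated exons of a gene, whether or not these cells use them. The order of the genes and the ratios between them depend on that choice. In WT unwounded cells IL18 (1072 ± 141 counts per kb, SD, n = 5) and IL1A (859 ± 65.5) were the most abundant members, and their libraries overlapped. IL1B (642 ± 71.0) and IL1RN (239 ± 18.8) followed, each apart from its neighbors. IL1RAP (125 ± 6.95) and IL36G (98.9 ± 12.6) overlapped, and IL1R1 (51.4 ± 3.80), IL36RN (21.3 ± 1.21), IL33 (6.51 ± 3.43) and IL1R2 (0.0628 ± 0.141) each lay apart below them. The order differed in GCN2KO unwounded cells. There IL1A (1495 ± 198) and IL18 (1100 ± 159) overlapped at the top, IL1RN (499 ± 38.0) overlapped with IL1B (403 ± 36.6), and IL36RN (86.1 ± 14.6) stood above IL36G (38.4 ± 8.29). IL33 (0.282 ± 0.267) was last, below IL1R2 (1.50 ± 0.335). After HDW, IL1A led in both genotypes, at 1905 ± 173 in WT and 1936 ± 195 in GCN2KO cells. In WT HDW cells IL1B (1198 ± 104) was next and overlapped with IL18 (967 ± 130), and IL36RN (29.0 ± 3.85) overlapped with IL33 (20.8 ± 4.28). In GCN2KO HDW cells IL18 (997 ± 16.2) was next, and IL1B (525 ± 27.9) overlapped with IL1RN (521 ± 47.4).

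**Figure D1:**
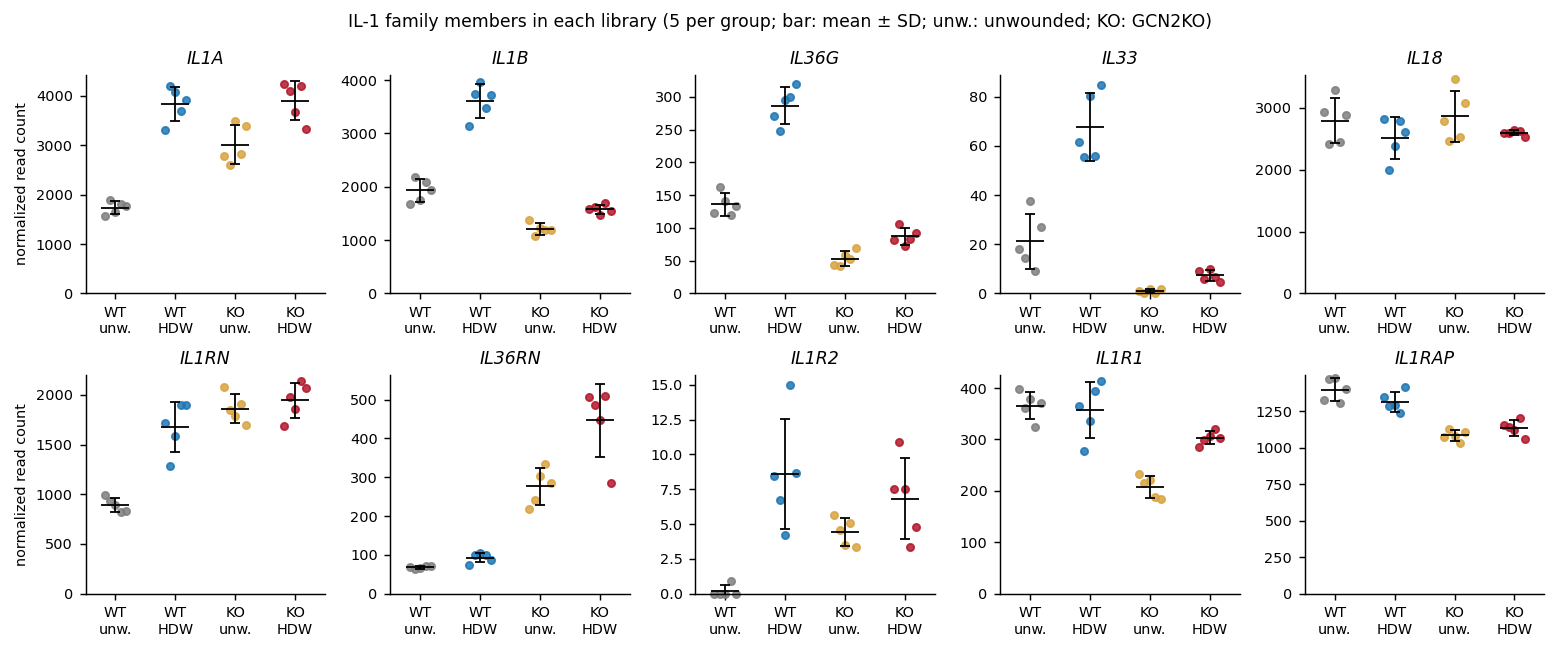
Normalized read counts (y axis, linear from 0, one scale per gene) of the 10 members in the 20 libraries, 5 per group (x axis), with the mean and SD as black bars. IL1B and IL36G are low in both GCN2KO groups, IL36RN is high in both, and IL1A and IL1RN in GCN2KO unwounded cells lie above WT unwounded cells.

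The agonist gene IL1A was higher in unwounded GCN2KO cells than in unwounded WT cells, and after HDW the genotypes did not differ past the threshold. WT libraries 1 to 5 held 1558, 1891, 1645, 1805 and 1766 normalized read counts of IL1A unwounded and 3319, 4203, 4072, 3699 and 3923 after HDW. GCN2KO libraries held 2776, 2595, 3486, 2826 and 3394 unwounded and 4236, 4093, 3676, 4193 and 3323 after HDW. Every GCN2KO unwounded library was thus above every WT unwounded library, while the HDW groups overlapped. GCN2KO set against WT gave a log2 fold change of 0.80 (SE 0.0859, adjusted p = 5.09e-07) unwounded and 0.02 (SE 0.0747, adjusted p = 0.80) after HDW. IL1A rose with HDW by 1.15 on the log2 scale in WT (SE 0.063, adjusted p = 1.60e-09) and by 0.38 in GCN2KO cells (SE 0.093, adjusted p = 0.0119). The response to HDW was smaller in GCN2KO cells (interaction of -0.78, SE 0.12, adjusted p = 4.94e-05).

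IL1B, whose product needs cleavage by caspase-1, was lower in GCN2KO cells in both states. In the order of the libraries, IL1B stood at 1683, 2184, 1755, 2092 and 1945 normalized read counts in WT unwounded and 3137, 3732, 3960, 3475 and 3727 in WT HDW cells. It stood at 1377, 1071, 1233, 1180 and 1198 in GCN2KO unwounded and 1582, 1613, 1462, 1690 and 1548 in GCN2KO HDW cells. All 5 GCN2KO libraries lay below all 5 WT libraries in each state, and 4 of the 5 wounded GCN2KO libraries lay below every unwounded WT library. The log2 fold change between the genotypes was -0.67 unwounded (SE 0.0831, adjusted p = 2.77e-06) and -1.19 after HDW (SE 0.0603), and the rise with HDW was smaller in GCN2KO cells (interaction of -0.52, SE 0.106, adjusted p = 0.000886). The ratio of IL1A to IL1B per kb, looked at after their values were seen, was 1.34 ± 0.0509 in unwounded and 1.59 ± 0.0542 in wounded WT, and 3.73 ± 0.511 in unwounded and 3.69 ± 0.293 in wounded GCN2KO cells (SD, n = 5).

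IL36G, the IL-36 agonist of keratinocytes, differed between the genotypes in the same direction as IL1B. Its levels were 123, 162, 141, 119 and 133 normalized read counts in WT unwounded and 271, 247, 294, 299 and 320 in WT HDW libraries. In GCN2KO cells they were 43.2, 41.4, 57.9, 52.1 and 69.2 unwounded and 81.7, 106, 72.1, 83.6 and 92.9 after HDW. The 4 groups do not overlap, and even the wounded GCN2KO libraries lay below the unwounded WT ones. IL36G was lower in GCN2KO cells by a log2 fold change of -1.32 unwounded (SE 0.146, adjusted p = 7.43e-07) and -1.71 after HDW (SE 0.106, adjusted p = 7.43e-09). It rose with HDW in WT (1.09, SE 0.0945, adjusted p = 1.91e-07) and in GCN2KO cells (0.71, SE 0.157, adjusted p = 0.0073). The difference between these responses did not pass the threshold (interaction of -0.39, SE 0.183, adjusted p = 0.131).

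IL33, a nuclear cytokine released on damage, was weakly expressed and nearly missing from unwounded GCN2KO cells. WT libraries held 9, 8, 31, 10 and 28 raw counts of IL33 unwounded and 73, 66, 95, 56 and 98 after HDW. GCN2KO libraries held 1, 0, 2, 0 and 2 counts unwounded and 11, 7, 12, 4 and 5 after HDW. No library of 1 genotype overlapped with the other genotype in the same state. In the comparison of the wounded genotypes, all 5 WT HDW but only 2 GCN2KO HDW libraries were above the filter on low counts. In that of HDW in WT cells, all 5 WT HDW and 4 WT unwounded libraries were above it. The values of IL33 are therefore a description with no test, and it is left out of the counts of members. The fitted log2 fold changes were -3.17 (SE 0.223) between the wounded genotypes and 1.65 (SE 0.266) with HDW in WT cells. Per library total, the summed count was 22.2 times as high in WT as in GCN2KO unwounded cells (95% exact counting interval 9.14 to 70.0) and 8.90 times as high in WT HDW as in GCN2KO HDW cells (6.39 to 12.7). It was 3.07 times as high in WT HDW as in WT unwounded cells (2.43 to 3.93) and 7.66 times as high in GCN2KO HDW as in GCN2KO unwounded cells (3.02 to 24.9). These intervals cover counting error only.

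IL18, which keratinocytes hold as a precursor, was not past the threshold in any comparison. Its group means were 2792 ± 368 normalized read counts in unwounded and 2518 ± 339 in wounded WT, and 2866 ± 413 in unwounded and 2598 ± 42.2 in wounded GCN2KO cells (SD, n = 5). All 4 groups overlapped. Its log2 fold changes were 0.04 (SE 0.102) and 0.05 (SE 0.0753) between the genotypes unwounded and after HDW, -0.15 (SE 0.0943) and -0.13 (SE 0.0834) with HDW in WT and GCN2KO cells. Over the 5 tests its adjusted p ranged from 0.193 to 0.983.

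Both antagonist genes were higher in GCN2KO unwounded cells. IL1RN, the antagonist of the IL-1 receptor, had 990, 935, 888, 824 and 832 normalized read counts in WT unwounded and 1721, 1287, 1581, 1894 and 1896 in WT HDW libraries. GCN2KO libraries had 2075, 1847, 1788, 1904 and 1695 unwounded and 1691, 1978, 1854, 2135 and 2067 after HDW. Every unwounded GCN2KO library lay above every unwounded WT library and within or near the range of the wounded libraries of both genotypes. IL1RN of unwounded GCN2KO cells exceeded that of unwounded WT cells by 1.07 (log2 fold change, SE 0.0747, adjusted p = 3.81e-09). It rose with HDW in WT by 0.91 (SE 0.0922, adjusted p = 8.69e-07), whereas the change in GCN2KO cells was 0.07 (SE 0.0781, adjusted p = 0.521), and the difference between the responses passed the threshold (interaction of -0.85, SE 0.125, adjusted p = 2.60e-05). After HDW the difference between the genotypes was 0.21 (SE 0.0946, adjusted p = 0.0568). It passed the threshold without WT HDW library 4 (0.26, adjusted p = 0.0323), without WT HDW library 5 (0.26, adjusted p = 0.0338) or without GCN2KO HDW library 1 (0.26, adjusted p = 0.0249), and with a block for the replicate number (0.22, adjusted p = 0.0212).

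IL36RN, the antagonist of the IL-36 receptor, exceeded its WT level in GCN2KO cells in both states, by the largest positive difference among the tested members. WT libraries held 69.5, 62.5, 66.4, 70.6 and 72.3 normalized read counts unwounded and 74.2, 101, 104, 99.7 and 87.3 after HDW. GCN2KO libraries held 218, 241, 304, 334 and 285 unwounded and 507, 485, 446, 508 and 285 after HDW. The genotypes do not overlap in either state, and GCN2KO HDW library 5 was the lowest of its group. IL36RN was higher in GCN2KO cells by 2.02 unwounded (log2 fold change, SE 0.128, adjusted p = 1.30e-09) and by 2.26 after HDW (SE 0.154, adjusted p = 1.72e-08), which was 2.38 without library 5 (adjusted p = 2.04e-11). It rose with HDW by 0.44 in WT (SE 0.117, adjusted p = 0.00575) and by 0.69 in GCN2KO cells (SE 0.151, adjusted p = 0.00728), and the interaction was 0.24 (SE 0.217, adjusted p = 0.459). With all libraries thinned to the smallest total, the rise in WT no longer passed the threshold (0.42, adjusted p = 0.0633).

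Set against their agonists within each library, the antagonists stood higher in GCN2KO cells. These ratios of counts per kb are descriptions with no test. The ratio of IL36RN to IL36G was 0.242, 0.165, 0.201, 0.254 and 0.233 in WT unwounded and 0.117, 0.175, 0.151, 0.143 and 0.117 in WT HDW libraries. In GCN2KO cells the same ratio was 2.16, 2.49, 2.24, 2.74 and 1.76 unwounded and 2.65, 1.95, 2.65, 2.60 and 1.31 after HDW. The antagonist mRNA was thus below the agonist mRNA in all 10 WT libraries and above it in all 10 GCN2KO libraries. The ratio of IL1RN to the sum of IL1A and IL1B was 0.139 to 0.199 in unwounded and 0.104 to 0.172 in wounded WT, and 0.218 to 0.303 in unwounded and 0.172 to 0.256 in wounded GCN2KO libraries. Here too the genotypes do not overlap in either state, although the wounded ones meet at their edge. The ratio of the decoy receptor IL1R2 to IL1R1, which rests on few IL1R2 reads, was 0 to 0.0069 in unwounded and 0.0303 to 0.0915 in wounded WT libraries. It was 0.0382 to 0.0648 in unwounded and 0.0251 to 0.0877 in wounded GCN2KO libraries.

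**Figure D2:**
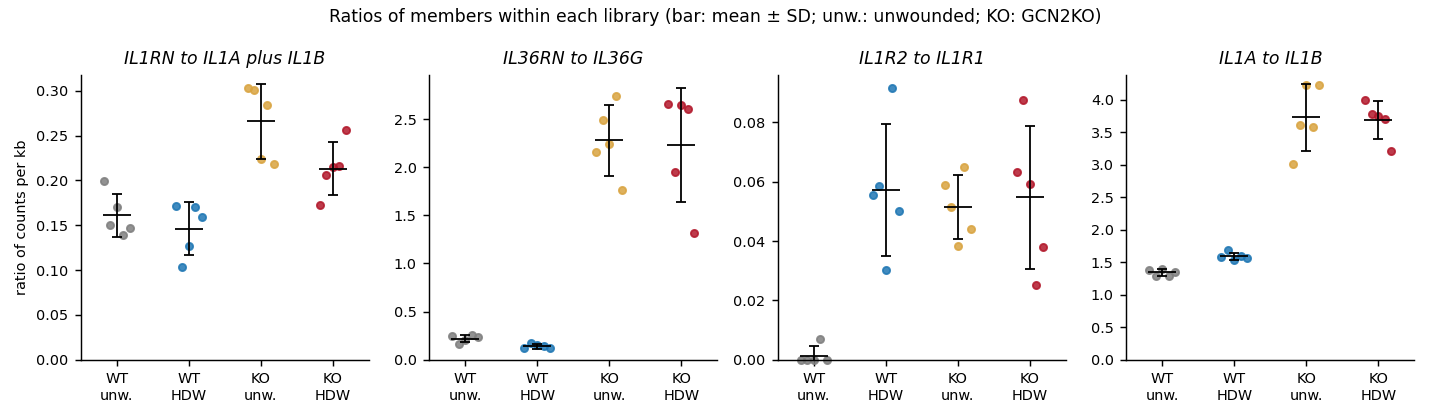
Ratios of normalized read counts per kb within each of the 20 libraries (y axis, linear from 0), 5 per group (x axis), with the mean and SD as black bars. The ratio of IL36RN to IL36G lies between 0.117 and 0.254 in WT and between 1.31 and 2.74 in GCN2KO libraries.

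The receptor chain IL1R1, which binds IL-1, was lower in GCN2KO unwounded cells. It stood at 398, 360, 378, 324 and 370 normalized read counts in WT unwounded and 366, 277, 336, 394 and 414 in WT HDW libraries. In GCN2KO libraries it stood at 233, 215, 221, 187 and 184 unwounded and 286, 299, 306, 321 and 304 after HDW. The unwounded genotypes do not overlap, and the wounded ones do. The difference between the genotypes was -0.81 unwounded (log2 fold change, SE 0.0927, adjusted p = 1.09e-06) and -0.24 after HDW (SE 0.0935, adjusted p = 0.0332). The latter missed the threshold without any 1 of WT HDW libraries 1, 4 and 5 and GCN2KO HDW libraries 1, 2 and 3 (log2 fold changes of -0.23, -0.21, -0.18, -0.22, -0.23 and -0.24, with adjusted p from 0.0554 to 0.0926). IL1R1 rose with HDW in GCN2KO cells (0.56, SE 0.0866, adjusted p = 0.00117) and not past the threshold in WT (-0.03, SE 0.096, adjusted p = 0.814), with an interaction of 0.58 (SE 0.132, adjusted p = 0.00253).

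IL1RAP, the accessory chain that the IL-1, IL-33 and IL-36 receptors share, was lower in GCN2KO cells by smaller amounts. Its group means were 1397 ± 78.0 normalized read counts in unwounded and 1315 ± 68.8 in wounded WT, and 1084 ± 36.9 in unwounded and 1136 ± 52.4 in wounded GCN2KO cells (SD, n = 5). All 5 GCN2KO libraries lay below all 5 WT libraries in each state. The log2 fold change between the genotypes was -0.36 unwounded (SE 0.0602, adjusted p = 5.95e-05) and -0.21 after HDW (SE 0.047, adjusted p = 0.000957). The changes with HDW were -0.09 in WT (SE 0.045, adjusted p = 0.116) and 0.08 in GCN2KO cells (SE 0.0591, adjusted p = 0.352). Without WT HDW library 5 the change in WT passed the threshold (-0.12, adjusted p = 0.0473).

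IL1R2, the decoy receptor, had very few reads and was not tested in any comparison. WT unwounded libraries held 0, 0, 0, 1 and 0 counts of IL1R2, and WT HDW libraries 10, 8, 5, 15 and 10. GCN2KO libraries held 5, 3, 4, 6 and 4 counts unwounded and 9, 13, 9, 2 and 5 after HDW. The WT unwounded libraries thus stood below all others. Per library total, the summed count was 32.7 times as high in WT HDW as in WT unwounded cells (95% exact counting interval 5.60 to 1318) and 17.1 times as high in GCN2KO as in WT unwounded cells (2.76 to 705), both resting on 1 count in WT unwounded cells.

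The members were counted over the 8 genes tested in all 4 comparisons of groups, without IL33 and IL1R2. Unwounded, the genotypes differed in 7 of the 8. Of these, 3 were higher and 4 lower in GCN2KO cells, against 33.4% and 33.1% of all 15348 genes tested. A total of 3 were DE genes, which also need a log2 fold change of 1 or more in size (16.4% of all tested), and the libraries of 7 did not overlap (53.3% of all tested). After HDW, 1 of the 8 was higher and 4 were lower in GCN2KO cells (35.9% and 35.8% of 15855 genes), 3 were DE genes (14.9%) and the libraries of 4 did not overlap (57.2%). So many genes were called in these comparisons that the members' counts are no result about the family. The median log2 fold change of the 8 members was -0.16 unwounded and -0.10 after HDW, against 0.0042 and 0.002 for all genes.

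Members rose after HDW in both genotypes, and none passed the test downward in edgeR. In WT cells 5 of the 8 members rose, against 26.1% of all 15348 genes, and 0 fell (25.2% of all). Of the 5, 2 were DE genes (4.17% of all tested), namely IL1A and IL36G, and the libraries of 5 did not overlap (36.9%). In GCN2KO cells 5 of the 8 rose (11.9% of 15791 genes) and 0 fell (10.8%), 0 were DE genes (0.671%) and the libraries of 3 did not overlap (15.2%). At an unadjusted p under 0.05 the number of members that fell was also 0 in both genotypes, and DESeq2 called 0. The median log2 fold change of the 8 members was 0.67 in WT and 0.39 in GCN2KO cells, against -0.0024 and -0.001 for all genes. The interaction passed the threshold for 4 of the 8, with 1 higher (IL1R1; 11.2% of 16536 genes) and 3 lower (IL1A, IL1B and IL1RN; 12.5%) in GCN2KO cells, and for 0 as DE genes (3.31%). The comparisons share libraries, and their values are given side by side only.

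**Figure D3:**
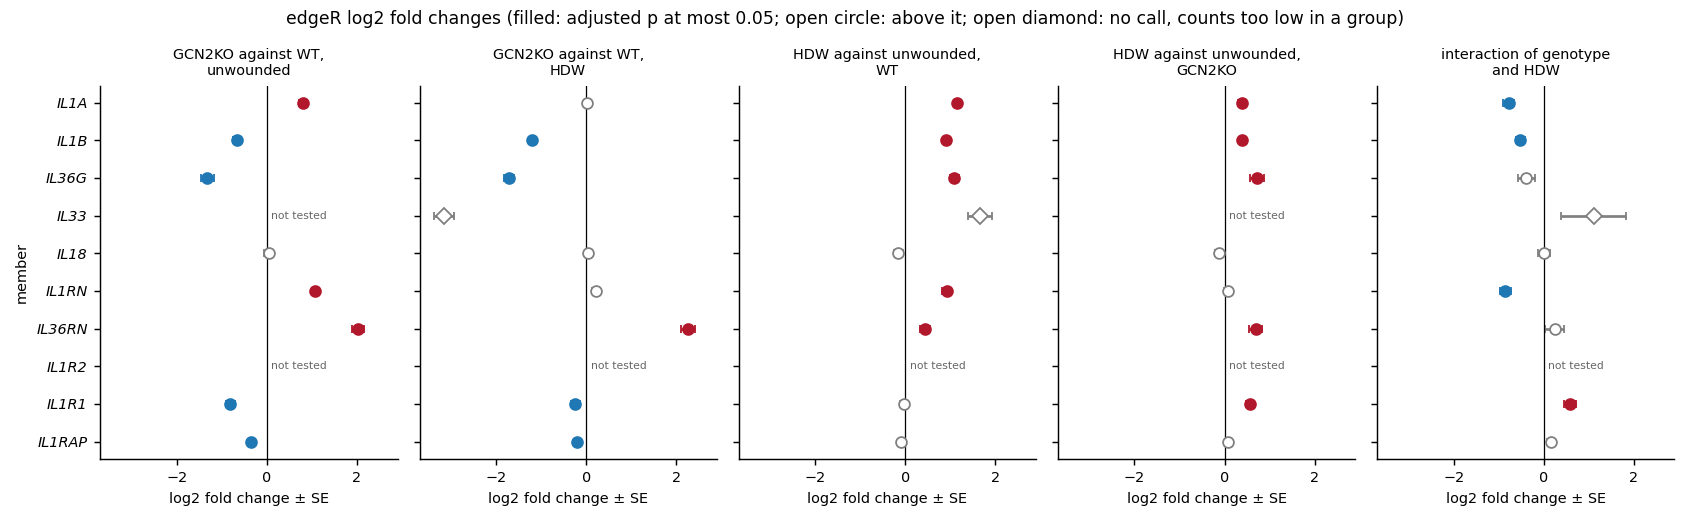
edgeR log2 fold changes with their SE (x axis) of each member (y axis) in the 4 comparisons of groups and in the interaction of genotype and HDW. Filled points have an adjusted p of at most 0.05 (red higher, blue lower), and open circles do not. Open diamonds mark IL33, left without a call because a group had libraries below the filter on low counts. In WT cells 5 members are filled to the right after HDW, and IL36RN lies farthest right in both comparisons of the genotypes.

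The genes with the most similar patterns were looked up for IL33, IL36RN and IL36G, the 3 members with the widest range of group means among the 9 that passed the filter over all 20 libraries. Likeness is the root mean square difference of centered log2 normalized counts over the 20 libraries. For IL36RN the nearest genes were TRIM16 (0.171), IVL (0.234) and AOC2 (0.264). IVL, which encodes the cornified envelope protein involucrin, had means of 3126 ± 255 in unwounded and 4464 ± 395 in wounded WT, and 11070 ± 2637 in unwounded and 17350 ± 2755 in wounded GCN2KO cells (normalized read counts, SD, n = 5). In GCN2KO HDW library 5, which was low for IL36RN, IVL was 12470 and TRIM16 was 5239, against 18000 to 19070 and 7645 to 8061 in the other 4. For IL36G the nearest included NRCAM (0.235) and the chromatin protein gene HMGA2 (0.243), and IL1B was at rank 35 (0.393). For IL33 they were PAPPA (1.00), KANK4 (1.00) and the protease gene MMP7 (1.10), which are less close. The range of IL33 and these differences rest in part on its 0 to 2 raw counts in GCN2KO unwounded libraries and on the value added before log2. MMP7 was also low, with means of 1.14 in unwounded and 3.13 in wounded GCN2KO cells.

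Of 12 other family genes, 4 or 5 passed the filter in a comparison. In GCN2KO against WT cells 2 of 4 were higher and 0 lower unwounded (33.4% and 33.1% of all genes), and 3 of 5 were higher and 1 lower after HDW (35.9% and 35.8%). IL18R1, which binds IL-18, was higher unwounded (1.15, SE 0.124, adjusted p = 6.02e-07), and IL18BP, a secreted protein that neutralizes IL-18, was higher after HDW (1.25, SE 0.132, adjusted p = 1.13e-06). The IL-36 receptor gene IL1RL2, named after its values were seen, had a log2 fold change of 0.59 after HDW (SE 0.205, adjusted p = 0.0188). Unwounded it did not pass the threshold (0.45, SE 0.208, adjusted p = 0.0667). Its levels were low, and the wounded genotypes overlapped, at 15.2 to 33.7 normalized read counts in WT and 31.8 to 36.4 in GCN2KO libraries. With HDW, 3 of 5 rose in WT (26.1% of all genes) and 2 of 5 in GCN2KO cells (11.9%). IL1RL1, the receptor of IL-33, went from 0 to 2 raw counts per library in WT unwounded to 23 to 43 in WT HDW cells. In GCN2KO cells it had 6 to 12 counts unwounded and 7 to 38 after HDW. IL1RL1 is counted among those that rose, although in WT cells it passed the filter only through its HDW libraries. Its rise in WT cells and its interaction rest on 0 to 2 counts in WT unwounded libraries and are no support for the shares given here. The others that rose in WT cells were IL18R1 (0.78, SE 0.122, adjusted p = 7e-05) and SIGIRR (0.39, SE 0.0871, adjusted p = 0.00166). In GCN2KO cells the change of IL1RL1 was 1.19 (SE 0.269, adjusted p = 0.00841). The interaction was higher for 1 and lower for 3 of the 5 genes, IL1RL1 among the 3 (11.2% and 12.5% of all genes). The median log2 difference between the genotypes over the tested genes was 0.51 unwounded and 0.39 after HDW. The median change with HDW was 0.39 in WT and 0.26 in GCN2KO cells, and that of the interaction was -0.56. The medians of HDW in WT cells and of the interaction include IL1RL1, so they are no result about this list.

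The list of inflammasome and cytokine-processing genes holds 19, of which 15 or 16 were tested. In GCN2KO cells 3 of 15 were higher and 6 lower unwounded (33.4% and 33.1% of all genes), and 3 of 16 were higher and 8 lower after HDW (35.9% and 35.8%). GSDMD, which encodes the pore-forming protein gasdermin D, was lower by a log2 fold change of -1.23 unwounded (SE 0.0838, adjusted p = 2.79e-09). PYCARD, the adaptor ASC, was lower by -0.93 unwounded (SE 0.0973, adjusted p = 4.16e-07) and -0.95 after HDW (SE 0.0637, adjusted p = 1.44e-08). With HDW, 4 of 16 rose and 7 fell in WT (26.1% and 25.2% of all genes), and 3 of 15 rose and 4 fell in GCN2KO cells (11.9% and 10.8%). NLRP3, 1 of the 8 lower in wounded GCN2KO cells and of the 4 that rose in WT, passed the filter mainly through WT HDW libraries. CASP1 itself, the protease that matures IL-1β and IL-18, fell by 0.66 on the log2 scale in WT cells (SE 0.0482, adjusted p = 2.81e-08), from 1142 ± 66.7 to 723 ± 34.8 normalized read counts (SD, n = 5), while NLRP10 rose by 2.20 (SE 0.246, adjusted p = 2.58e-06). CASP1 also fell in GCN2KO cells (-0.37, SE 0.0999, adjusted p = 0.0186), with an interaction of 0.28 (SE 0.115, adjusted p = 0.0843). CASP1 was lower in GCN2KO than in WT cells unwounded (-0.51, SE 0.0946, adjusted p = 0.000171) and after HDW (-0.24, SE 0.0557, adjusted p = 0.00162). The interaction was higher for 1 and lower for 2 of 16 (11.2% and 12.5%). The median log2 fold changes were -0.11 and -0.20 between the genotypes and -0.01 and -0.01 with HDW, in the order given.

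Among 21 signaling genes of the IL-1 receptor, 6 were higher and 7 lower in GCN2KO cells unwounded (33.4% and 33.1% of all genes), and 7 and 10 after HDW (35.9% and 35.8%). The lower genes include IRAK3 and PELI2, which passed the filter only through WT libraries. The kinase gene IRAK2 (-1.09, SE 0.0973, adjusted p = 6.17e-08) and the ubiquitin ligase gene PELI3 (-1.39, SE 0.0989, adjusted p = 4.64e-09) were lower unwounded. Both were also lower after HDW (-1.10, SE 0.0825, adjusted p = 4.12e-08 and -1.38, SE 0.106, adjusted p = 5.03e-08). MYD88, the adaptor of the receptors, was higher after HDW (0.49, SE 0.0365, adjusted p = 4.25e-08) and not past the threshold unwounded (0.08, SE 0.0641, adjusted p = 0.291). Its change with HDW was -0.435 in WT (SE 0.0342, adjusted p = 6.46e-08) and -0.01 in GCN2KO cells (SE 0.0636, adjusted p = 0.919). With HDW 3 rose and 4 fell in WT (26.1% and 25.2% of all genes), and 3 rose and 1 fell of 19 tested in GCN2KO cells (11.9% and 10.8%). IRAK1 rose in WT cells (0.73, SE 0.0382, adjusted p = 9.80e-10). The interaction was higher for 4, PELI2 among them, and lower for 2 (11.2% and 12.5% of all genes), and the medians of the list lay between -0.02 and 0.08 over the 5 tests.

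The last list holds 28 genes that keratinocytes are known to raise on IL-1 or IL-36, of which 22 or 23 were tested. In WT cells 4 of 22 rose and 9 fell with HDW, against 26.1% and 25.2% of all genes, and the list had a median of -0.18 (log2). In GCN2KO cells 7 of 23 rose and 1 fell, against 11.9% and 10.8%, with a median of 0.09. The interaction was higher for 8 of 23, TNF with its low counts in GCN2KO cells among them, and lower for 1, against 11.2% and 12.5%, with a median of 0.19. PTGS2, the inducible cyclooxygenase, rose in both genotypes (1.24, SE 0.0623, adjusted p = 7.20e-10 in WT and 1.12, SE 0.119, adjusted p = 0.000112 in GCN2KO cells). NFKBIA, the inhibitor of NF-kB, fell by 0.56 on the log2 scale in WT cells (SE 0.0303, adjusted p = 1.46e-09). TNFAIP3, a brake on NF-kB signaling, rose by 0.87 in GCN2KO cells (SE 0.0968, adjusted p = 0.000167). It was nevertheless lower in GCN2KO than in WT cells, unwounded (-1.37, SE 0.0881, adjusted p = 1.47e-09) and after HDW (-0.52, SE 0.061, adjusted p = 3.07e-06). Between the genotypes 5 of 22 were higher and 10 lower in GCN2KO cells unwounded (33.4% and 33.1% of all genes), TNF among the 10, and 7 and 7 after HDW (35.9% and 35.8%). The chemokine gene CCL20 was lower by -2.39 unwounded (SE 0.142, adjusted p = 6.12e-10) and -2.07 after HDW (SE 0.157, adjusted p = 4.72e-08), whereas PI3, which encodes the protease inhibitor elafin, was higher by 1.96 (SE 0.0801, adjusted p = 1.48e-11) and 0.95 (SE 0.0902, adjusted p = 3.81e-07).

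**Figure D4:**
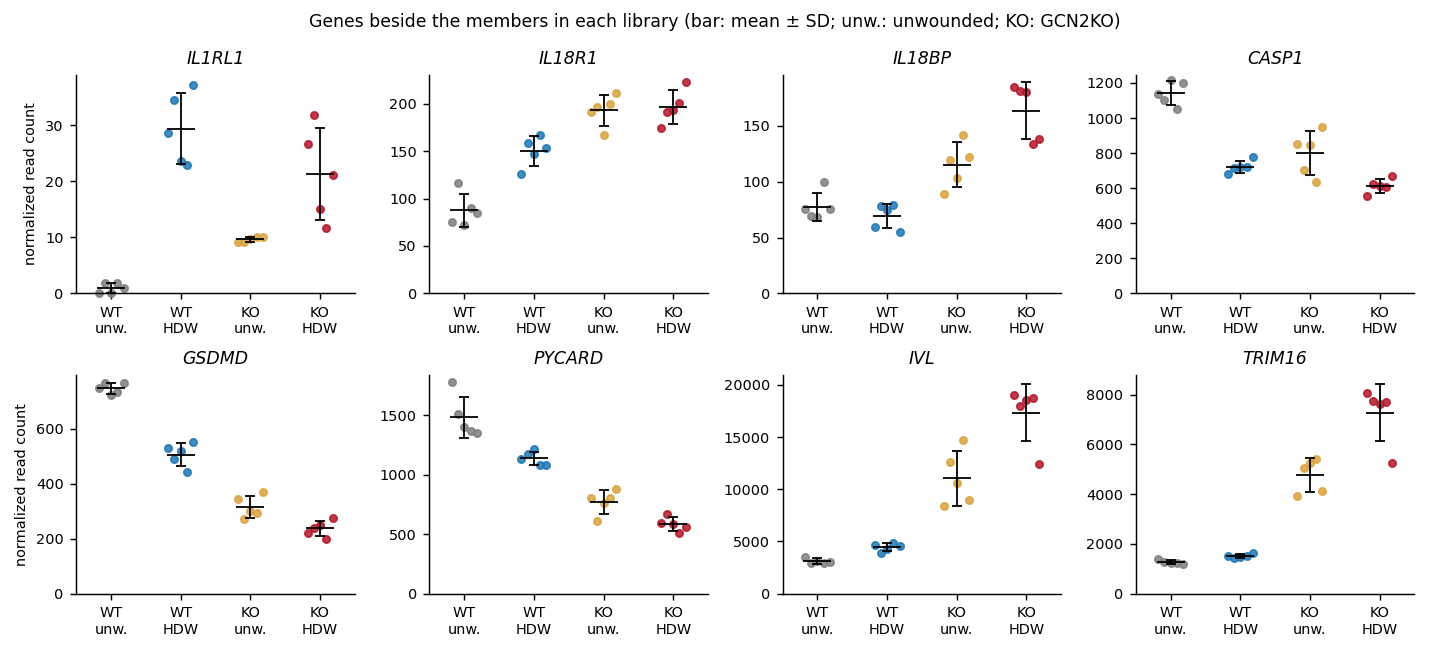
Normalized read counts (y axis, linear from 0, one scale per gene) of 3 family genes outside the members, 3 genes of cytokine processing and the 2 genes nearest to IL36RN, in 5 libraries per group (x axis), with the mean and SD as black bars. GSDMD and PYCARD are lower in both GCN2KO groups than in the WT group of the same state, and library 5 of GCN2KO HDW is the lowest of its group for IVL and TRIM16.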

How the data were processed

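RNA of NTERT keratinocytes was sequenced in 20 libraries, 5 for each of 4 groups named by the labels. Per the labels and methods, the authors trimmed reads with Trimmomatic, used STAR for alignment to GRCh38 and let featureCounts assign unique alignments to exons. Raw counts were deposited for each gene, not normalized, and their strand use and the annotation release are not given in the sources used here. Symbols, positions and exon lengths came from GENCODE release 44 (56410 of 57500 genes matched), and promoter sequences from RefSeq (GRCh38.p14). CARD17 and SOD2 of the gene lists were not matched.

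Each pair of groups was compared over its 10 libraries, and the interaction over all 20, with edgeR 4.0.16 (R 4.3.3; glmQLFit, glmQLFTest), TMM and filterByExpr (minimum count 10, minimum total 15). Adjusted p are Benjamini-Hochberg values over all genes tested. A gene was called higher or lower at an adjusted p of at most 0.05. The SE is the size of the log2 fold change divided by the root of F. Normalized read counts are counts scaled to the mean of the 20 effective library sizes that TMM gives. A pseudocount of 0.5 was added before log2 for likeness of patterns. On simulated counts, 200 of 200 genes changed by a log2 fold change of 1 were recovered for GCN2KO against WT unwounded, with 13 false calls over 15338 genes. The changed genes were drawn only from those with many counts. All genes had the same fixed dispersion, and simulated libraries of a group differed only in depth and random noise. The recovery therefore does not measure the power for members with few counts or for the observed spread between libraries.

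Named were the members, EIF2AK4, up to 2 higher and 2 lower list genes with the smallest adjusted p in a comparison (a selection is printed), and the 3 genes nearest to each of 3 members, of which 1 is not reported here. Counts over the 8 members tested in every comparison of groups were chosen after the data were seen. Members and lists were chosen with earlier results of these data known. Alternatives were DESeq2 1.42.0, its size factors, library size alone, other filters, thinning, 1 fit of all libraries, the replicate block, a fold change threshold and leaving out each library.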

Additional observations from a re-analysis of the deposited data

Results flagged for a closer look

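In 2 of 40 groups of 5 libraries (10 members in 4 groups), 1 library stood outside the others by Dixon's critical value of 0.71, and chance alone gives about 1 in 20. GCN2KO HDW library 5 held 285 normalized read counts of IL36RN, against 446 to 508 in the other 4. WT unwounded library 4 held 0.929 normalized read counts of IL1R2, which is 1 read, against 0 in the other 4.

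For 4 members the edgeR test of the interaction found unequal responses to HDW in the 2 genotypes. It was smaller in GCN2KO cells for IL1A (-0.78, adjusted p = 4.94e-05), IL1B (-0.52, adjusted p = 0.000886) and IL1RN (-0.85, adjusted p = 2.60e-05), and larger for IL1R1 (0.58, adjusted p = 0.00253). In GCN2KO cells all 5 wounded libraries lay above all 5 unwounded ones for IL1B and IL1R1, 4 of 5 for IL1A and 1 of 5 for IL1RN.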

How the results depend on the processing

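The 10 libraries of each comparison limit these results to the spread between samples of unknown independence, and IL33 and IL1R2 are limited by their few reads. The counts of members called here include IL33 where it was tested. In the comparisons that called it, only its WT HDW group had all libraries above the filter. With IL33 the main counts are 5 lower in GCN2KO HDW cells and 6 raised by HDW in WT cells. Without IL33 they are 4 and 5. Calls of IL33 are thus no support for these counts. Of these counts, those after a log2 fold change of at least 1 was also required fell most. Lower members in GCN2KO unwounded cells then numbered 1 and in GCN2KO HDW cells 3, members raised by HDW numbered 3 in WT and 0 in GCN2KO cells, and the interaction was called for 0 higher and 0 lower members. Members higher in GCN2KO cells after HDW numbered 2 (IL1RN besides IL36RN) with library size alone, with no filter, with all 20 libraries in 1 fit and with the replicate block. With library size alone 1 member fell with HDW in WT cells (IL1RAP) and 2 had a higher interaction. Leaving out single libraries gave 1 to 2 members higher in GCN2KO HDW cells and 0 to 1 that fell with HDW in WT cells, 4 to 5 lower in each state, and the main counts elsewhere. The cause of these moves was not tested, other than the added threshold.

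Estimates that changed sign were never past the threshold. With no filter IL1A in GCN2KO against WT HDW cells was -0.0038, and with a mean of at least 50 counts the interaction of IL18 was -0.0023. Without single libraries, the signs of IL18 between genotypes unwounded (-0.0322 to 0.1015 over all settings) and after HDW (-0.0308 to 0.086), of its interaction (-0.0682 to 0.0889), of IL1A after HDW (-0.0287 to 0.0752) and of IL1R1 with HDW in WT cells (-0.0901 to 0.0485) also turned. IL1R1 in GCN2KO against WT HDW cells lost its call with library size alone (-0.21, adjusted p = 0.0544). With no filter, edgeR also called IL33 lower (-4.27, adjusted p = 1.94e-16) and IL1R2 higher (3.54, adjusted p = 0.000666) in GCN2KO unwounded cells, IL1R2 higher with HDW in WT (4.51, adjusted p = 2.16e-06) and IL33 in GCN2KO cells (2.77, adjusted p = 0.000878), fitted values that rest on few reads and on the prior count.

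Samples of the same replicate number deviated little together: the mean correlation of their deviations was 0.0208, 0.0358, 0.00338 and -0.0921 in the 4 comparisons. Of 10 libraries in each, 1, 3, 3 and 0 deviated most like the library of their own number in the other group. These values cannot show whether samples of the same number shared a day or batch, which the sources do not say. With the replicate number as a block, and IL33 counted where tested, 3 members were higher and 4 lower in GCN2KO unwounded cells, 2 and 5 after HDW, 6 and 5 rose with HDW in WT and GCN2KO cells, and IL1RN after HDW (0.22, adjusted p = 0.0212) was the only call to change.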
